A study of Homo sapiens with 6 samples.

Results

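The replication-dependent histone genes encode the linker histone H1 and the core histones H2A, H2B, H3 and H4. They were taken as the protein-coding genes whose symbols are H1-1 to H1-6 or begin with H2AC, H2BC, H3C or H4C followed by a number. Of 69 such symbols in RefSeq, 64 were matched to an Ensembl identifier of the deposited counts, which held 62754 genes in all. H2AC18, H2BC7, H2BC8, H4C2 and H4C6 were not matched and were not analysed here. The 64 genes comprised 6 of H1, 16 each of H2A and H2B, and 13 each of H3 and H4.

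RNA was sequenced from 3 control libraries and 3 FAM60A knockout libraries of HEK293 cells, adherent cells of human embryonic kidney origin. HEK293T, a derivative with the SV40 large T antigen, also stands in the sample labels. Knockout cells were selected with puromycin as a pool, not as a clone, after transfection of Cas9 with guide RNAs to 3 regions of FAM60A, a subunit of the Sin3/HDAC co-repressor complex; the labels describe the controls only as control, and both groups were grown in the same medium. Nothing in the labels says whether the 3 libraries of a group came from separate cultures, so p-values measure the spread between these libraries, which may be technical.

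Replication-dependent histone genes are transcribed mainly in S phase, when new nucleosomes are needed, and most of them lie in dense clusters without introns. Their mRNAs normally end in a conserved stem-loop instead of a poly(A) tail. Stem-loop binding protein and the U7 snRNP direct cleavage just after this hairpin. A minor part of the transcripts is polyadenylated, in particular where a gene carries a second, downstream end. The libraries were poly(A)-selected, so the counts refer mostly to those polyadenylated forms and not to the bulk of histone mRNA. In bulk RNA, fewer cells in S phase and less RNA per cell cannot be told apart.

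The hairpin is shown because it defines the class. In the GENCODE transcripts on GRCh37, a stem of 6 paired bases around a loop of 4 was sought within 100 bases after the stop codon. G-T pairs were allowed, and the stretch had to begin with GG, end with CC and open its loop with TT. This pattern was found in 61 of the 64 genes (95.3%), against 22 of 19640 other protein-coding genes (0.112%). Members were set apart by symbol, so histone genes under older symbols, such as HIST2H2AA3, were not taken out of the others. Counted from the first base after the stop codon, the hairpin began at base 23 to 68, with a median of 37. The 7 forms are written 5′ to 3′ on the gene's strand, with the loop in capitals.
H2AC25, H2BC21, H1-2, H3C10 and 34 further genes: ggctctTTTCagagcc
H2BC12, H2BC11, H2BC5, H2BC4 and 4 further genes: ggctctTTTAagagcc
H4C8, H4C5, H4C16 and 5 further H4 genes: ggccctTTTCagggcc
H4C14, H4C15, H4C9 and H4C12: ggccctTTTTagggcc
H2AC20: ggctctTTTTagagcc
H2AC11: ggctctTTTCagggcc
H2AC15: ggttctTTTCagagcc
All 12 H4 genes with a hairpin had a stem that begins ggccct, and no member of another family did. No match was found for H3C6, H2BC10 and H4C13, which says only that this pattern is not in that window of the annotated transcripts.

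Among the 64 genes, 12 had an annotated 3′ untranslated part longer than 150 bases, between 272 bases for H2BC4 and 4594 bases for H2BC26. In transcripts annotated as protein coding, the only ones measured, the others ended within 88 bases of the stop codon. The poly(A) signal AATAAA lay in the longest 3′ part of 11 of these 12 genes and of 1 of the 52 others. The 12 genes were H2AC25, H2AC6, H2BC4, H2BC5, H2BC6, H2BC11, H2BC15, H2BC18, H2BC21, H2BC26, H3C6 and H3C10. Exon bases of other transcripts were left out of this measure. Over all transcripts, exons came to 1880 bases each for H4C14 and H4C15, 2163 for H4C8 and 2454 for H4C16.

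Total counts per library lay between 88361827 and 93346824. FAM60A (current symbol SINHCAF, ENSG00000139146) had 11028, 10165 and 12792 counts in the control libraries, against 5684, 5793 and 5449 in knockout. Its log2 fold change (log2FC) was -0.85 (standard error, SE, 0.11, edgeR adjusted p = 0.00863), so FAM60A RNA was reduced but still present in the pool. It was not called in the fits without knockout replicate 1, 2 or 3 or with the replicate number as a block (adjusted p of 8.01e-10, by DESeq2, to 0.0736, by edgeR, over the alternatives). A two-sided exact permutation test of its normalized level gave p = 0.1, the smallest p that 3 libraries against 3 allow. The paper checked the knockout by immunoblot and qRT-PCR, and RNA counts do not measure FAM60A protein. Control 3 stood apart from controls 1 and 2, and results are given with its value or with the fit without it. Levels are given as CPM, read counts per library size after TMM normalization. Of 9 HEK293 marker genes, 8 were tested and 3 fell (INA, LHX1 and NEFM), with summed levels of 964 to 1725 CPM in the control libraries, the lowest in control 3, against 746 to 887 CPM in knockout, while PAX8 held at most 9 counts in any library. KRT8 and VIM, neither of which was called, made up the largest parts of these sums, with 712 and 694 CPM in control 1 and 387 and 299 CPM in control 3. Markers of MDA-MB-231 cells summed to 104 to 435 CPM in the controls, the lowest in control 3, and 121 to 134 CPM in the knockout libraries, with 0 of 8 called by edgeR (4 at an unadjusted p under 0.05, 4 by DESeq2 and 1 by limma-voom). Fibroblast markers summed to 25.9 to 29.9 and 27.8 to 28.6 CPM (COL1A1 fell and DCN and LUM rose, of 5 tested, and COL1A2 held at most 2 counts). Blood cell markers summed to at most 1.76 CPM, with 0 of 2 called by edgeR (1 at an unadjusted p under 0.05, 1 by DESeq2 and 0 by limma-voom) and HBB at 0 to 1 count. Among all genes tested, 16.6% were called by edgeR, 26.6% by DESeq2 and 17.2% by limma-voom, and 34.5% had an unadjusted p under 0.05 (edgeR). The part of other cells or of the composition of the pool in the histone results was not tested.

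Levels spanned a wide range and a few genes took most of the reads. Over the 6 libraries, H2BC12, H1-2 and H2AC25 made up 70.1% of the summed CPM of all members, not corrected for length, and 10 genes made up 90.1%. Only 15 of the 64 genes had a mean of at least 1 CPM. Per kilobase of annotated exon, the highest control means were 169.7 CPM for H2BC12, an H2B gene, 80.7 for H1-2, a linker histone gene, and 30.0 for H2AC25, an H2A gene. H2BC11 with 11.1 and H2AC6 with 9.48 CPM per kilobase followed. H2BC12 and H1-2 had the highest levels although their annotated 3′ parts are only 57 and 47 bases long. H4C7 had no count in any library, and 19 genes had at most 10 counts in every library.

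edgeR's quasi-likelihood test was fitted to all genes with enough counts, and p-values were adjusted by Benjamini-Hochberg over the 20992 genes tested. This filter kept 43 of the 64 members. Of these, 8 fell and 3 rose in FAM60A knockout cells at an adjusted p of at most 0.05, which is 25.6% against 16.6% of all genes tested. The background was 8.67% for lower and 7.96% for higher genes. All 11 also had an absolute log2FC of at least 1, the fold change threshold in the study's methods, which 7.06% of all genes passed together with the adjusted p. The members' median log2FC was -0.76, against -0.01 for all genes tested. The fitted value was below 0 in 37 of 43 members, or 86% (35 with limma-voom, where H3C7 and H4C11 turned positive), against 50.6% of all genes. CPM did not overlap between control and knockout libraries in 22 members, 19 of them lower and 3 higher, or 51.2%, against 41.6% of all genes (20.1% lower and 21.5% higher).

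These counts depended strongly on which library was left out. Without control 3, edgeR called 33 members lower and 4 higher of 45 tested, against a background of 65.6% called over all genes (33.2% lower and 32.4% higher), and the median of the members was -1.14. Without any other single library, edgeR called between 2 and 3 members, against 0.763% to 4.89% of all genes. H2AC25 and H4C14 were called in each of these 6 fits, H2BC21 in 4 of them, and the other 8 only in the fit without control 3.

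**Figure D1:**
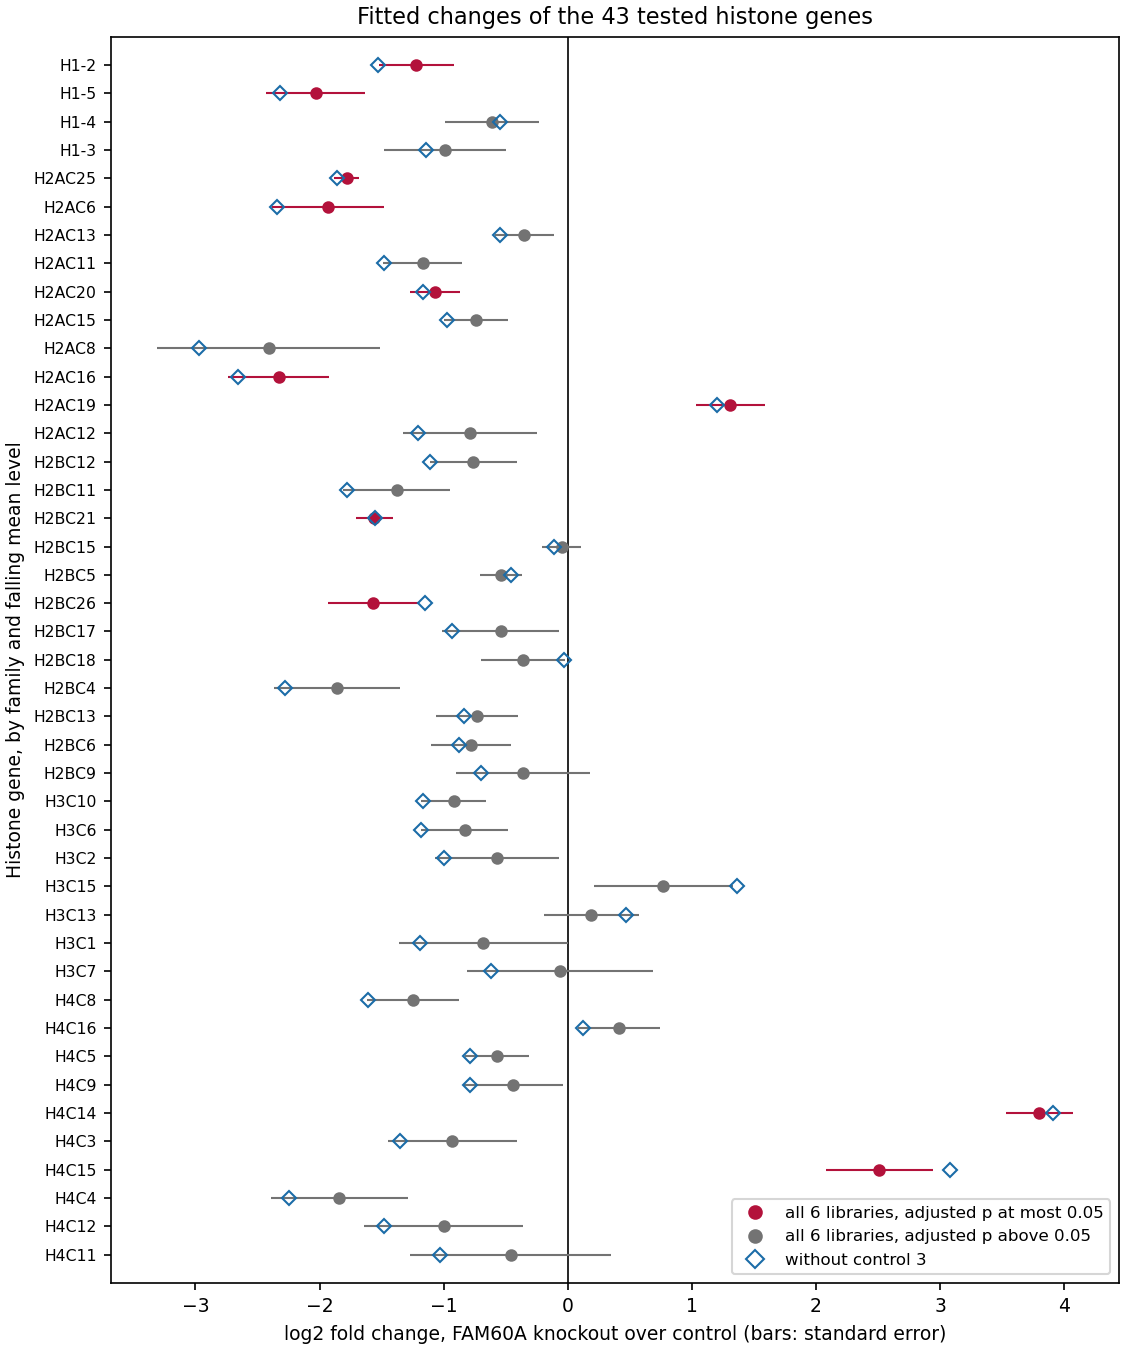
Fitted log2 fold change of FAM60A knockout over control for the 43 tested histone genes, grouped by family; bars are standard errors, filled points use all 6 libraries and open diamonds leave out control 3. Most points lie left of 0, with H4C14 (3.80), H4C15 (2.51) and H2AC19 (1.31) as the called genes on the right.

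H2AC25 (ENSG00000181218) encodes an H2A protein and lies apart from the large clusters, on chromosome 1 of GRCh37 from 228622478 to 228645574. Its levels were 53.5, 60.8 and 52.1 CPM in controls 1, 2 and 3 and 16.3, 16.4 and 15.6 CPM in the knockout libraries. Control 3 lay with the other controls and the groups did not overlap. H2AC25 fell from 55.5 ± 4.72 to 16.1 ± 0.438 CPM (SD, n = 3), a log2FC of -1.78 (SE 0.10, edgeR adjusted p = 0.00136). It was called in all 12 alternative fits, with adjusted p between 1.95e-46 (DESeq2) and 0.0384 (edgeR). Its divergent neighbour H2BC26, an H2B gene whose start lies 230 bases away, had 1.30, 1.41 and 2.85 CPM in the control libraries, against 0.582, 0.559 and 0.725 CPM in knockout. Here control 3 was the highest of all libraries. H2BC26 fell with a log2FC of -1.57 (SE 0.36, edgeR adjusted p = 0.0334), or -1.15 without control 3, and its adjusted p ranged from 1.26e-05 to 0.153 over the alternatives.

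H2BC21 (ENSG00000184678), an H2B gene with an annotated 3′ part of 1801 bases, lies on chromosome 1 from 149856009 to 149858232. It had 7.60, 7.56 and 8.29 CPM in the control libraries, against 2.755, 2.701 and 2.502 CPM in knockout, without overlap. H2BC21 fell with a log2FC of -1.56 (SE 0.15, edgeR adjusted p = 0.00416), and lost its call only without knockout replicate 1 or 3, with adjusted p of 2.62e-30 (DESeq2) to 0.0534 (edgeR) over the alternatives. The H2A gene H2AC20, whose start lies 236 bases away on the other strand, had 1.40, 1.57 and 1.26 CPM in the control libraries, against 0.736, 0.718 and 0.566 CPM in knockout. H2AC20 fell with a log2FC of -1.07 (SE 0.20, edgeR adjusted p = 0.0212; 6.31e-06 to 0.112 over the alternatives). In both pairs, all 3 controls lay above all 3 knockout libraries.

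The other 4 genes that fell lie on chromosome 6, and control 3 was below controls 1 and 2 in each. H1-2 had 71.9, 71.9 and 33.2 CPM in the control libraries, against 27.4, 25.5 and 23.2 CPM in knockout. It fell with a log2FC of -1.22 (SE 0.30, edgeR adjusted p = 0.0404; 3.42e-13 to 0.161 over the alternatives), and control 3 was nearer to the knockout libraries than to the other controls. H2AC6, an H2A gene with a long annotated end of 1039 bases, overlaps another annotated gene on the same strand, so its count is uncertain. It had 20.7, 20.4 and 6.40 CPM in the control libraries, against 4.83, 3.98 and 3.64 CPM in knockout. Its log2FC was -1.93 (SE 0.45, edgeR adjusted p = 0.0359; 2e-14 to 0.152 over the alternatives). H1-5, a linker histone gene, had 117, 102 and 54 counts in the control libraries, against 16, 15 and 29 in knockout, a log2FC of -2.03 (SE 0.40, edgeR adjusted p = 0.0237; 4.31e-08 to 0.125). H2AC16, an H2A gene, had 62, 68 and 28 counts in the control libraries, against 8, 10 and 10 in knockout, a log2FC of -2.33 (SE 0.41, edgeR adjusted p = 0.0168; 6.31e-08 to 0.103). For H1-5 and H2AC16, control 3 lay between the groups and nearer to controls 1 and 2 on the log scale, with 0.05 CPM added.

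**Figure D2:**
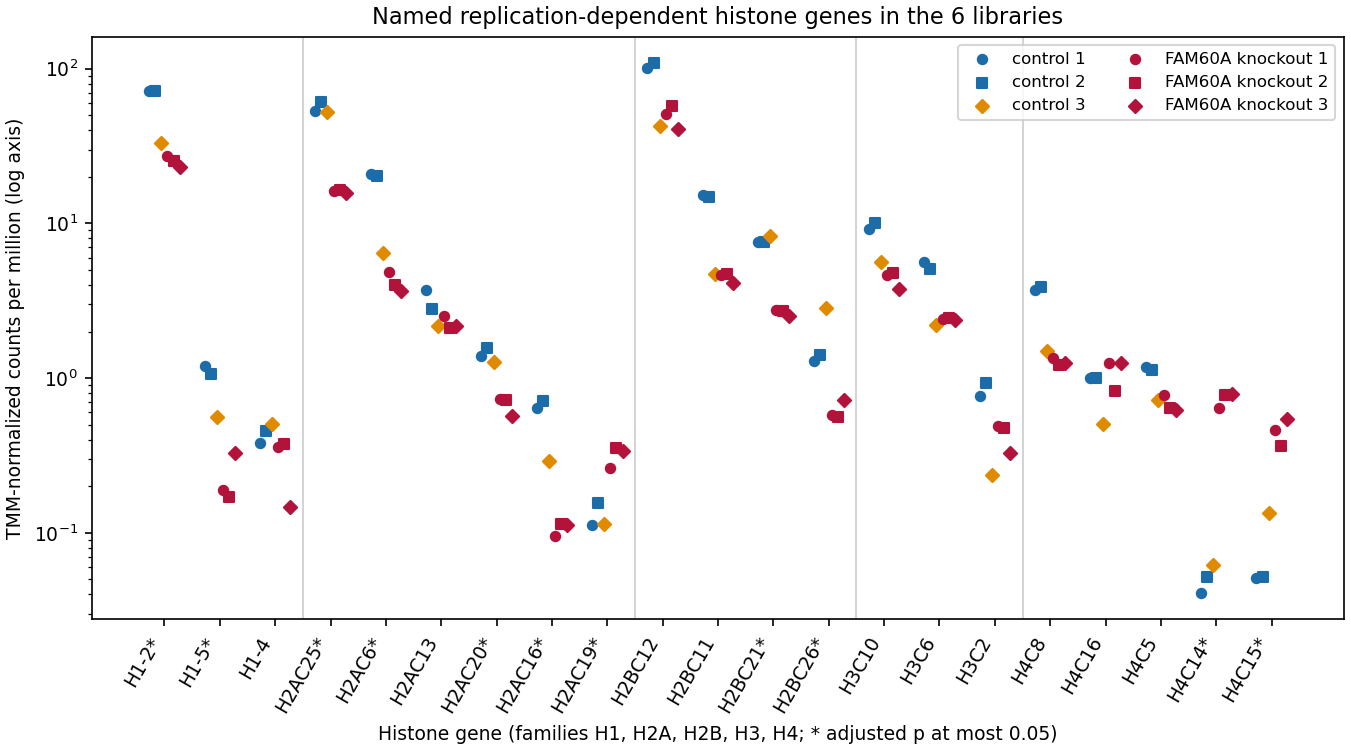
TMM-normalized CPM (log axis) of the 21 named histone genes in each library; blue marks controls 1 and 2, orange control 3 and red the knockout libraries, and an asterisk marks an adjusted p of at most 0.05. Control 3 lies with controls 1 and 2 for H2AC25 and H2BC21, near the knockout libraries for H2BC11 and H4C8, and above all others for H2BC26.

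The 3 genes that rose, H4C14, H4C15 and H2AC19, lie close together in a duplicated stretch of chromosome 1, and each was low in the controls. H4C14 (149804221 to 149811339) had 4, 5 and 6 counts in the control libraries, against 54, 68 and 70 in knockout, a log2FC of 3.80 (SE 0.27, edgeR adjusted p = 0.00236). It was called in all 11 alternatives in which it was tested, with adjusted p between 3.09e-12 (DESeq2) and 0.0437 (edgeR). H4C15 (149825607 to 149832725) had 5, 5 and 13 counts in the control libraries, against 39, 32 and 48 in knockout, a log2FC of 2.51 (SE 0.43, edgeR adjusted p = 0.0162; 7.68e-07 to 0.0931). Both encode histone H4. Each has 1880 exon bases over all transcripts, and gene counts do not show which part of them the reads came from. Of the 150-base words of their transcripts, 92.2% for H4C14 and 100% for H4C15 also occur in the other, so the split of reads between them is uncertain. Summed over both, they held 9, 10 and 19 counts in the control libraries, against 93, 100 and 118 in knockout, and went from 0.131 ± 0.0571 to 1.19 ± 0.125 CPM (SD, n = 3).

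H2AC19, an H2A gene (149822628 to 149823161), had 11, 15 and 11 counts in the control libraries, against 22, 31 and 30 in knockout. Its log2FC was 1.31 (SE 0.28, edgeR adjusted p = 0.0276; 0.00425 to 0.127 over the alternatives). All of its 150-base words also occur in a near-identical copy that was not analysed here, so its count is uncertain. The duplicated H3 genes were close to the limit of detection. H3C14 held 0, 0 and 3 counts in the controls, at the floor of 3 counts per library, and 9, 9 and 6 in the knockout libraries, and was not tested. Taken at this floor, the reads assigned to H3C14 were at least 2.98-fold higher in the knockout mean. Its copy H3C15 had 21, 7 and 37 counts in the control libraries, against 42, 26 and 31 in knockout (log2FC 0.77, edgeR adjusted p = 0.372). Of the 150-base words, 98.9% for H3C14 and 100% for H3C15 also occur in other H3 genes. The split of reads is therefore uncertain, and so is the fold for H3C14 alone. Summed over this pair, counts were 21, 7 and 40 in the control libraries, against 51, 35 and 37 in knockout, so that the groups overlapped. In the same block, H3C13 had a log2FC of 0.19 and H2BC18 one of -0.36, neither of which was called. Each floor covers counting error only.

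Promoter sequence is shown for 3 called genes, of which H2AC25 and H2BC21 fell and H4C14 rose. The sequences are RefSeq's on GRCh38.p14, the 250 bases before the start, 5′ to 3′ on the gene's strand, with every match to the CCAAT box, to the TATAAA box or to the octamer ATGCAAAT in either orientation in capitals. The stretches of H2AC25 and H2BC21 also cover the sequence between each and its divergent neighbour, H2BC26 or H2AC20.
H2AC25 (chr1:228457874-228458123, minus strand): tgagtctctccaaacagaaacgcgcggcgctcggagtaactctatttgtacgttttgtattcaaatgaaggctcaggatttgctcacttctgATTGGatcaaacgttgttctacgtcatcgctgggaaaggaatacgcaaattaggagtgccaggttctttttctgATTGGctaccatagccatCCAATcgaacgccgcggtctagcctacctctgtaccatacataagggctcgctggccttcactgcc
H2BC21 (chr1:149886683-149886932, minus strand): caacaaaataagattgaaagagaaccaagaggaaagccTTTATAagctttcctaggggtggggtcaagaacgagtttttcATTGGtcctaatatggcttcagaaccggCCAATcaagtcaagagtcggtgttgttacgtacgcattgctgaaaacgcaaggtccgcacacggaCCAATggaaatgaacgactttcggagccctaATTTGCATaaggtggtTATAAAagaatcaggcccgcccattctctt
H4C14 (chr1:149832407-149832656, plus strand): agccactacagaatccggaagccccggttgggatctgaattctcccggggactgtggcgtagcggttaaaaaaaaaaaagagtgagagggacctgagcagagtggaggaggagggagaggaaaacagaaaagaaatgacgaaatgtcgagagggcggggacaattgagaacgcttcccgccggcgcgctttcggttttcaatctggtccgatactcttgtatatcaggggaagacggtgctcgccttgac
The H4C14 stretch held none of these 3 motifs, and the RefSeq promoter of H4C15 had 0 differences from that of H4C14 over 300 bases. RefSeq promoters from 250 bases before to 50 bases after the start were found for 59 members. CCAAT was present in 84.7% of them, against 34.5% of 35053 other genes, TATAAA in 66.1% against 11.4%, and the octamer in 40.7% against 1.71%. CCAAT was in every H1, H2A, H2B and H3 promoter but in 18.2% of H4 promoters, and the octamer was in 73.3% of H2A and 75% of H2B promoters, 9.09% of H3 promoters and no H1 or H4 promoter. None of these 3 motifs contains another. A match is a description of the letters and not a binding site.

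Several of the most abundant members did not pass the test, and in most of them control 3 lay near the knockout libraries. H2BC12, the member with the highest CPM, had 101, 108 and 42.6 CPM in the control libraries, against 50.8, 57.2 and 40.6 CPM in knockout. The groups overlapped through control 3, and the log2FC was -0.76 (SE 0.35, edgeR adjusted p = 0.178), or -1.11 without control 3 (edgeR adjusted p = 2.68e-09). H2BC11, an H2B gene, had 15.3, 14.7 and 4.74 CPM in the control libraries, against 4.62, 4.68 and 4.09 CPM in knockout (log2FC -1.38, edgeR adjusted p = 0.0768, and 5.51e-13 without control 3). H3C10, the H3 gene with the highest CPM, had 9.20, 10.1 and 5.64 CPM in the control libraries, against 4.61, 4.81 and 3.78 CPM in knockout (log2FC -0.92, edgeR adjusted p = 0.0565, and 4.79e-09 without control 3). H3C6, another H3 gene, had 5.63, 5.04 and 2.19 CPM in the control libraries, against 2.41, 2.45 and 2.37 CPM in knockout, with control 3 the lowest of all (log2FC -0.83, edgeR adjusted p = 0.153, and 1.09e-08 without control 3). H4C8, the H4 gene with the highest CPM, had 3.70, 3.87 and 1.49 CPM in the control libraries, against 1.34, 1.22 and 1.25 CPM in knockout (log2FC -1.25, edgeR adjusted p = 0.0673, and 6.07e-10 without control 3).

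The remaining named members did not pass the test with all 6 libraries. H2AC13, an H2A gene, went from 2.88 ± 0.775 (2.16 in control 3) to 2.27 ± 0.210 CPM (SD, n = 3; log2FC -0.35), H3C2 from 0.642 ± 0.359 (0.238 in control 3) to 0.431 ± 0.0892 CPM (-0.57) and H4C5 from 1.01 ± 0.249 (0.7245 in control 3) to 0.682 ± 0.0887 CPM (-0.57). Without control 3 these 3 had edgeR adjusted p of 0.00168, 0.000532 and 0.000749. H1-4, a linker histone gene, had 37, 44 and 49 counts in the control libraries, against 30, 33 and 13 in knockout (log2FC -0.61, edgeR adjusted p = 0.296, and 0.133 without control 3). H4C16, the only member on chromosome 12, had 0.998, 0.999 and 0.507 CPM in the control libraries, against 1.25, 0.821 and 1.26 CPM in knockout (log2FC 0.41, edgeR adjusted p = 0.425). H2BC15, an H2B gene named after its values were seen, was the most even of the abundant members, at 5.22, 4.63 and 4.66 CPM in the control libraries, against 5.19, 4.34 and 4.495 CPM in knockout (log2FC -0.05, edgeR adjusted p = 0.856).

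Summed by family, all 5 families had a lower mean in the knockout libraries than in the controls. The H2A sum was 87.8, 93.2 and 65.1 CPM in controls 1, 2 and 3 and 27.3, 26.1 and 24.97 CPM in the knockout libraries, a ratio of knockout to control means of 0.318. The H1 sum was 73.8, 73.9 and 34.5 CPM in the control libraries, against 28.1, 26.3 and 23.8 CPM in knockout, a ratio of 0.429. In neither family did the groups overlap. The H2B sum was 137, 143 and 70.1 CPM in the control libraries, against 68.6, 73.8 and 56.6 CPM in knockout, a ratio of 0.567. The H3 sum was 16.5, 17.0 and 8.80 CPM in the control libraries, against 8.55, 8.63 and 7.32 CPM in knockout, a ratio of 0.579. In H2B control 3 fell within the range of the knockout libraries, and in H3 it was just above them, so that the groups overlapped in H2B but not in H3. The H4 sum was 8.24, 9.24 and 3.75 CPM in the control libraries, against 5.77, 5.06 and 5.59 CPM in knockout, a ratio of 0.774, with control 3 the lowest of the 6. Sums follow the most abundant members and were not tested. By calls, H1 had 2 of 4 tested genes lower, H2A 4 of 10 lower and 1 higher, H2B 2 of 12 lower, H3 0 of 7 called by edgeR (1 at an unadjusted p under 0.05, 1 by DESeq2, 0 by limma-voom, and 5 lower and 1 higher without control 3), and H4 2 of 10 higher. Over all genes tested, 8.67% were lower and 7.96% higher, or 33.2% and 32.4% without control 3. At an unadjusted p under 0.05 (edgeR) the share of all genes was 34.5%, by DESeq2 26.6% and by limma-voom 17.2%.

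**Figure D3:**
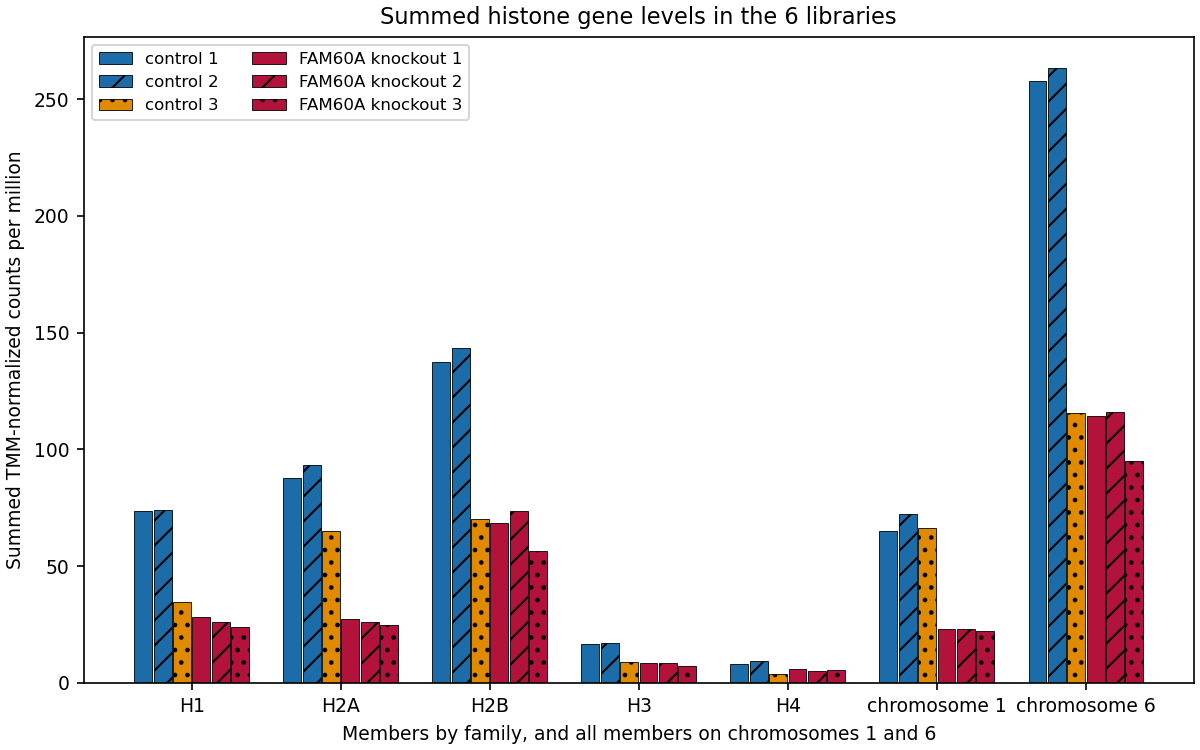
Summed TMM-normalized CPM of the members in each library, by family and for all members on chromosomes 1 and 6. On chromosome 1 control 3 (66.2) lies between controls 1 (64.8) and 2 (72.2), and on chromosome 6 it (115.5) lies within the range of the knockout libraries (94.9 to 116).

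The position of control 3 differed between the chromosomes that carry the clusters. The 12 members on chromosome 1 summed to 64.8, 72.2 and 66.2 CPM in controls 1, 2 and 3 and to 22.9, 22.9 and 22.2 CPM in the knockout libraries. The 51 members on chromosome 6 summed to 257.8, 263.5 and 115.5 CPM in the control libraries, against 114, 116 and 94.9 CPM in knockout. Control 3 was below both other controls in 28 of 32 tested members on chromosome 6 and in 2 of 10 on chromosome 1, against 70.9% and 41.7% of the other tested genes on these chromosomes. Relative to the mean of controls 1 and 2, with 0.05 CPM added to each value, the median log2 ratio of control 3 was -1.25 on chromosome 6 and 0.40 on chromosome 1. For 1132 other genes on chromosome 6 the median log2 ratio of control 3 was -0.59, and for 2087 others on chromosome 1 it was 0.02. Over the 22 autosomes this median ran from -0.60 for chromosome 6, the lowest, to 0.83 for chromosome 14. The same ratio for the knockout libraries had a median of -0.94 in members and -0.29 in the other genes on chromosome 6. The 33 other tested genes between the first and last member on chromosome 6 had medians of -0.37 for control 3 and -0.24 for the knockout libraries. In the fit with all 6 libraries, 6.1% of the other genes on chromosome 6 were called lower and 6.36% higher, against 4 of 32 members lower and 0 higher there (edgeR). The part of a chromosome-wide difference in the members' values was not tested.

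**Figure D4:**
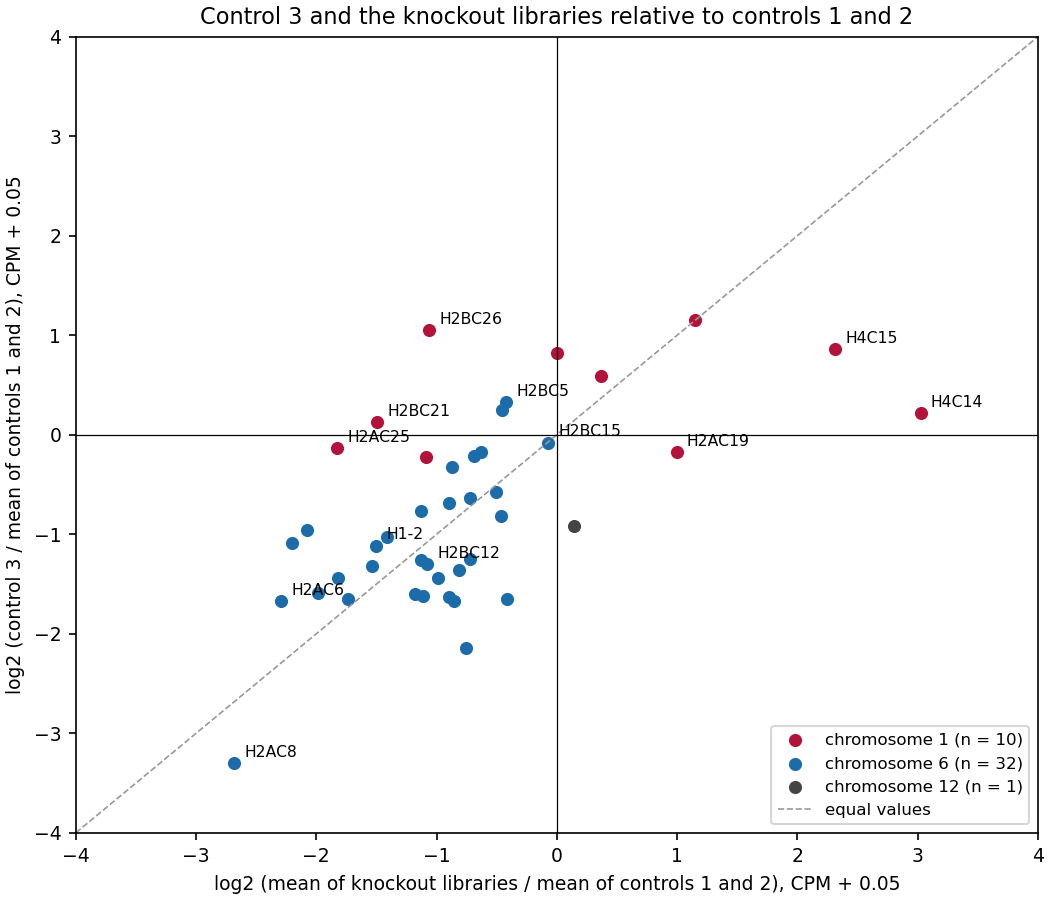
Each point is a tested histone gene: the log2 ratio of the knockout mean (horizontal) and of control 3 (vertical) to the mean of controls 1 and 2, with 0.05 CPM added, coloured by chromosome. Points of chromosome 6 lie mostly below 0 on both axes, while those of chromosome 1 lie near or above 0 for control 3.

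By position, members within 300 kb of each other formed 6 blocks on GRCh37. On chromosome 6, the block from H2AC1 to H4C8 (25723625 to 26285866) had 30 members, of which 17 were tested, 2 fell and all 17 had fitted values below 0, except that H3C7 was above 0 in 5 alternatives. The block from H2BC11 to H2AC12 (27093676 to 27115341) had 5 members, all with fitted values below 0 and 0 called by edgeR (2 at an unadjusted p under 0.05, 2 by DESeq2 and 0 by limma-voom), although all 5 were called lower without control 3. The block from H2BC13 to H2BC17 (27775257 to 27861669) had 16 members, of which 10 were tested, 2 fell and all 10 had fitted values below 0, though H4C11 turned positive with limma-voom and H2BC15 without knockout replicate 2. Among the other tested genes on chromosome 6, 60.1% had fitted values below 0, 6.1% were called lower and 6.36% higher. Over all genes tested, 8.67% were called lower and 7.96% higher, or 33.2% and 32.4% without control 3. The shares of all genes were 34.5% at an unadjusted p under 0.05 (edgeR), 26.6% by DESeq2 and 17.2% by limma-voom. On chromosome 1, the block from H2BC18 to H2AC21 (149754245 to 149859515) held both directions, with 2 of 8 tested genes lower and 3 higher, and the pair H2AC25 and H2BC26 was lower.

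H2A and H2B genes often stand head to head with a shared promoter region. In GENCODE on GRCh37, 11 pairs of members started 170 to 319 bases apart on opposite strands, 10 of them an H2A with an H2B gene. In 7 pairs both genes were tested, and in all 7 both fitted values were below 0 with all 6 libraries, though H2BC15 turned positive without knockout replicate 2. Fitted values below 0 were as common in the families, with 9 of 10 tested H2A genes and 12 of 12 tested H2B genes. Partners had unlike levels per kilobase: H2AC6 had a control mean of 9.48 CPM per kilobase and H2BC4 one of 0.2335, and their log2FC were -1.93 and -1.86 (edgeR adjusted p = 0.0359 and 0.0538). H2BC12 and H2AC12 had control means of 169.7 and 0.612 CPM per kilobase and log2FC of -0.76 and -0.79. In another pair, the log2FC was -0.05 for H2BC15 and -0.74 for H2AC15.

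Genes with a long annotated 3′ part and those without were compared by their counts and medians. All 12 genes with a long part were tested, and 4 of them fell (H2AC25, H2AC6, H2BC21 and H2BC26). Their log2FC lay between -1.93 and -0.05, with a median of -1.15. Of the 52 others, 31 were tested, 4 fell and 3 rose, and their log2FC lay between -2.41 and 3.80 with a median of -0.68. Among these, H4C14 and H4C15 (log2FC 3.80 and 2.51) have 1880 exon bases each over all transcripts. Gene counts do not show which part of these exons their reads came from. Over all genes tested, 8.67% were lower and 7.96% higher. Without control 3, edgeR called 9 of 12 genes with a long part lower and 0 higher. It called 24 of 33 others lower and 4 higher, against 33.2% and 32.4% of all genes. Summed CPM was 124, 130.1 and 92.99 in the control libraries, against 45.0, 43.5 and 40.8 in knockout for the genes with a long part, without overlap. For the others it was 199.8, 207 and 89.2 in the control libraries, against 93.3, 96.3 and 77.5 in knockout, so that control 3 fell within the range of the knockout libraries.

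The filter left out 21 members, and 19 of them had at most 10 counts in every library. The other two were H2AC4, with 38, 41 and 4 counts in the control libraries, against 4, 8 and 8 in knockout, and H3C12, with 15, 19 and 3 against 5, 9 and 6. Both were tested and called lower in the fit without control 3. H1-6 had 7, 10 and 0 counts in the control libraries, against at most 2 in knockout, and H3C11 had 7, 8 and 0 against at most 1. With knockout taken at the floor of 3 counts per library, the control means were at least 1.697-fold and 1.496-fold higher. Control 3 held 0 counts of both genes, so the groups overlapped and these values rest on controls 1 and 2. H4C11 and H4C12 share 88.8% and 89.5% of their 150-base words, and H3C12 overlaps H2AC17 on the same strand, so these counts are uncertain. H2BC4 overlaps HFE on the opposite strand, and whether the counting used strand is not given in the sources used here.

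Histone mRNAs are made and matured by a dedicated machinery, listed here as background to the members. The counts on this and the other lists stand against 16.6% of all genes called. Of 20 genes for histone mRNA 3′ end processing, 19 were tested, 1 fell and 1 rose. ZNF473, a zinc finger protein of the U7 snRNP-dependent cleavage step, fell from 29.6 ± 4.498 to 16.5 ± 0.946 CPM (SD, n = 3; log2FC -0.85, edgeR adjusted p = 0.0157, and 4.56e-10 without control 3). LSM11, a subunit of the U7 snRNP, rose from 30.5 ± 0.713 to 44.2 ± 2.87 CPM (SD, n = 3; log2FC 0.54, edgeR adjusted p = 0.0162, and log2FC 0.49 without control 3). SLBP, the stem-loop binding protein, had 99.7, 102 and 136 CPM in the control libraries, against 151.7, 150.8 and 134 CPM in knockout and was not called (log2FC 0.37, edgeR adjusted p = 0.131, and 1.12e-05 without control 3). LSM10, the partner of LSM11, was not called either (log2FC 0.20, edgeR adjusted p = 0.285, and 0.0161 without control 3). The list's median log2FC was -0.04.

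Of 15 genes for histone gene transcription, 1 rose and the other 14 did not pass the test. NFYB, a subunit of the factor that binds CCAAT, rose from 63.7 ± 6.36 to 90.9 ± 8.47 CPM (SD, n = 3; log2FC 0.51, edgeR adjusted p = 0.0331, and log2FC 0.57 without control 3). NPAT, the S-phase co-activator of histone genes, had 28.4, 24.8 and 17.6 CPM in the control libraries, against 28.8, 25.5 and 26.1 CPM in knockout (log2FC 0.19, edgeR adjusted p = 0.521; -0.02 without control 3). CASP8AP2, a histone locus body protein also known as FLASH, had 107.5, 88.1 and 52.3 CPM in the control libraries, against 83.0, 72.8 and 85.7 CPM in knockout (log2FC -0.04, edgeR adjusted p = 0.931). Of 12 genes for histone mRNA decay, TUT7, a uridylyltransferase, rose with a log2FC of 0.77 (edgeR adjusted p = 0.0105, and log2FC 0.71 without control 3) and its relative TUT4 fell with one of -0.32 (edgeR adjusted p = 0.0451, and log2FC again -0.32 without control 3). Of 14 genes for canonical polyadenylation, NUDT21, a subunit of cleavage factor I that takes part in poly(A) site choice, fell from 75.7 ± 6.40 to 53.6 ± 1.40 CPM (SD, n = 3; log2FC -0.50, edgeR adjusted p = 0.0213, and log2FC -0.60 without control 3), and 13 were not called.

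Of 12 variant histone genes, most of which give polyadenylated mRNA like other genes, 2 fell and the other 10 did not pass the test. H2AZ2, an H2A.Z gene, fell from 142 ± 28.5 to 77.1 ± 4.70 CPM (SD, n = 3; log2FC -0.88, edgeR adjusted p = 0.0200, and log2FC -1.07 without control 3) and H3-3A, an H3.3 gene, from 60.3 ± 8.96 to 34.9 ± 1.03 CPM (log2FC -0.79, edgeR adjusted p = 0.0143, and log2FC -0.94 without control 3). The summed variant genes had 2814 to 3188 CPM in the control libraries, against 2617 to 2855 CPM in knockout, so the groups overlapped. Of 24 histone chaperone genes, CHAF1A and CHAF1B, subunits of chromatin assembly factor 1, fell (log2FC -0.64 and -0.35, edgeR adjusted p = 0.0146 and 0.0349, and log2FC -0.75 and -0.41 without control 3). TONSL, which binds newly made histones, rose (log2FC 0.84, edgeR adjusted p = 0.0185, and log2FC 0.99 without control 3), and 21 were not called.

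S-phase genes moved in both directions. Of 20 tested, 3 fell, namely GINS2, MCM7 and MCM3 of the replicative helicase (log2FC -0.82, -0.47 and -0.38, and -0.94, -0.46 and -0.45 without control 3). Another 4 rose, among them POLA1, a subunit of DNA polymerase alpha, and RRM1, a subunit of ribonucleotide reductase (log2FC 0.52 and 0.49, and 0.44 and 0.38 without control 3). The edgeR adjusted p of GINS2, MCM7, MCM3, POLA1 and RRM1 lay between 0.00987 and 0.0373. MCM6, also of the replicative helicase and named after its values were seen, was among those that rose (log2FC 0.33, edgeR adjusted p = 0.0444, and log2FC 0.28 without control 3). The helicase genes thus moved in both directions. The summed list had 4143 to 4490 CPM in the control libraries, against 3827 to 4100 CPM in knockout, without overlap, and a median log2FC of -0.08. The part of a difference in S-phase share in the members' values was not tested. Of the genes called on these 7 lists, GINS2 was called in 3 of the 6 fits without 1 library and TUT7 in 2, and the others only in the fit without control 3. In that fit, edgeR called 8 S-phase genes lower and 5 higher, 9 and 7 of the processing genes, 4 and 4 of the transcription genes, 3 and 4 of the decay genes, 3 and 6 of the polyadenylation genes, 7 and 3 of the variant histones and 12 and 6 of the chaperones, against the same background of 65.6% called.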

How the data were processed

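RNA-seq libraries of control and FAM60A knockout HEK293 cells (3 each) were poly(A)-selected and prepared to keep strand. The authors deposited whole-number counts per Ensembl gene for 62754 genes, without normalization. The submitters' processing notes name STAR 2.7.10b, featureCounts 2.0.0 and hg38, whereas the paper's methods name Salmon and the labels hg19, so which of these made the counts is not settled.

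Genes were tested with edgeR 4.0.16 in R 4.3.3 (TMM, filterByExpr with a minimum count of 10, two-sided quasi-likelihood F-test, Benjamini-Hochberg adjustment over 20992 genes). The fit was tested on simulated data. Symbols came from a table that matched 60878 identifiers. Coordinates, exon lengths and transcripts came from GENCODE v44 on GRCh37 by Ensembl identifier, and promoters from RefSeq on GRCh38.p14.

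Alternatives were DESeq2 1.42.0, quantile-normalized limma-voom (limma 3.58.1), unscaled library sizes, no filter, at least 10 counts in every library, each library left out and the replicate block. The family sums were also computed without each library, which was chosen after seeing the data. The members and lists were chosen with earlier results of these data known.

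Genes named were all called members (at most 15), the 3 highest members of each family, FAM60A, at most 5 called genes of each list, and SLBP, NPAT, CASP8AP2, LSM10, LSM11 and ZNF473. Others are said to be chosen later or serve as a pair, an untested member or an extreme. Total counts of 88361827 to 93346824 put the floor of 3 counts at 0.0309 to 0.0356 CPM. Figures used Python 3.11.15 and matplotlib 3.10.9.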

Additional observations from a re-analysis of the deposited data

How the results depend on the processing

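Members called numbered 11, all past the fold threshold of 1. DESeq2 called 19 (17 at that fold), against a background of 26.6%, and the fits without 1 library called 2 to 37 (2 to 29), the highest without control replicate 3 and the lowest without knockout replicate 1 or 3. Among the genes called with all libraries, 11 were also called by DESeq2, 9 by limma-voom, 10 without a filter and 8 with at least 10 counts in every library. Library size without TMM shifted the median of all genes to -0.12 and called 15 members, 12 of them lower, against 18.6% of all genes (12.7% lower and 5.89% higher).

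The replicate numbers did not pair the samples: deviations of same-numbered libraries correlated at 0.010, 0.031 and -0.036. In the replicate block fit, edgeR called 3 members (3 at the fold threshold: H2AC25, H2BC21 and H4C14), against 1.94% of all genes, and 0 genes of each of the 7 lists, and the log2FC of FAM60A was -0.84 without a call. FAM60A also lost its call without a knockout library, with values from -0.92 to -0.78 over the fits without 1 library.

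Fits without 1 library called 0 to 10 variant histones, 0 to 16 processing genes, 0 to 8 transcription genes, 0 to 7 decay genes, 0 to 9 polyadenylation genes, 0 to 18 chaperones and 0 to 13 S-phase genes, each highest without control replicate 3. DESeq2 called 5 variant histones, 4 processing, 2 transcription and 3 polyadenylation genes and 7 chaperones. Library size without TMM called 6 chaperones, limma-voom 1 decay gene, and no filter 1 decay gene and 3 S-phase genes. The shares of all genes called were 26.6%, 18.6%, 17.2% and 6.45% with DESeq2, library size without TMM, limma-voom and no filter. CASP8AP2 turned positive with limma-voom (0.0404), with the block (0.0176) and without knockout replicate 2 (0.0408), and over the fits that leave out 1 library ranged from -0.31, when control 3 was dropped, to 0.17, when control 1 was. For NPAT the same fits gave -0.0191 and 0.31. Of the named members, H3C13 turned negative (-0.08) when control 2 was dropped and H2BC15 positive (0.01) when knockout replicate 2 was. H4C14 and H4C15 were not tested where 10 counts were needed in every library. The cause of these changes was not tested, and at these depths genes with few counts in every library could not be tested.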

Other observations

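Among other histone genes, chosen after their values were seen, H2BC12L, an H2B gene on chromosome 21, had 17, 28 and 7 counts in the control libraries, against 40, 38 and 44 in knockout (log2FC 1.38, edgeR adjusted p = 0.0885, and 0.00549 without control 3). The pseudogene H4C10P had 24, 14 and 11 counts in the control libraries, against 3, 9 and 2 in knockout (log2FC -1.63, edgeR adjusted p = 0.112, and 0.00301 without control 3). Neither passed the test with all 6 libraries. The other histone pseudogenes and relatives examined held at most 13 counts in any library.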
